A study of Arabidopsis thaliana with 72 samples.

Results

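A set of 148 probe sets was examined, out of 22746 on the Arabidopsis ATH1 array that are not controls, whose signal rose under abscisic acid (ABA) by 1 h, was still raised at 3 h and did not rise to the same extent under methyl jasmonate or auxin at 3 h. They were chosen from the measured values themselves. Each had an ABA minus mock difference of at least 1 on the log2 scale at both 1 h and 3 h in Col-0, with both ABA arrays above both mock arrays at each time. Each also had a mean level of at least 9 under ABA at 3 h, and a difference below 0.5 under methyl jasmonate and under auxin at 3 h. 4 well-known ABA-responsive probe sets were set aside by name, 3 of which met the other terms, so 151 probe sets met them in all. A level here is log2 of the rescaled signal plus 55, and a difference is a treated mean minus a mock mean of such levels.

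The study profiled seedlings grown for 7 days at 22 °C, with treatment times of 30 min, 1 h and 3 h, 2 arrays per group and 72 arrays in 36 groups. Wild-type Col-0 seedlings received a mock treatment or 1 of 7 hormones: 1 µM indole-3-acetic acid (IAA, the main natural auxin), 1 µM zeatin (a cytokinin), 1 µM gibberellin GA3, 10 µM ABA, 10 µM methyl jasmonate (MJ), 10 µM ACC (the precursor of ethylene) or 10 nM brassinolide (BL, a brassinosteroid). The gibberellin-deficient mutant ga1-5 received mock or 1 µM GA3, and the brassinosteroid-deficient mutant det2-1 received mock or 10 nM BL, at the same 3 times. Arrays of each time in each genotype form their own labelled set, so time and set cannot be told apart. Each difference from the mock of the same genotype and time stays within 1 set. Whole seedlings were measured, so more cells of a type and more RNA per cell cannot be told apart in any value below, and no label states that replicate arrays are separate cultures. The p-values below therefore measure the spread between these arrays alone.

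ABA is the plant hormone of drought, salt and cold stress and of seed dormancy. In the textbook pathway it binds soluble receptors that then hold back PP2C phosphatases, which frees SnRK2 kinases to activate bZIP transcription factors, and these switch on genes whose products protect and remodel the cell. Late embryogenesis abundant (LEA) proteins, lipid-transfer proteins and enzymes that act on the cell wall are among the classes long known to respond. Of the 148 risers, 60 probe sets name 1 gene, 2 name several and 86 carry no gene name in the annotation used here. The named genes appear by their locus, since a single one, AFR (AT2G24540), an F-box protein of far-red light signalling, has a symbol of its own. Protein family names below are general background knowledge of the Arabidopsis genome.

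The 1 h and 3 h values under ABA, and the 3 h values under MJ and IAA, chose the risers and are given as a description. The ABA difference had a median of 1.39 at 1 h, with a range of 1.00 to 5.03, and a median of 2.48 at 3 h, with a range of 1.08 to 6.96. At 3 h 133 risers lay further above mock than at 1 h, and 15 did not. Across the risers the 1 h and 3 h differences correlated at r = 0.479, over 148 probe sets that share the same arrays. Under MJ at 3 h the median was -0.15, with a lowest value of -1.55, and under IAA at 3 h it was -0.06, with a lowest value of -1.23. In limma's test, 111 risers at 1 h and 145 at 3 h were higher under ABA after adjustment, where 2.02% and 10.2% of all tested probe sets were. Those contrasts chose the risers and nothing is read from the counts.

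The limits of the choice cut through a continuous range. At 1 h, 253277_at lay just inside with a difference of 1.0005 and 257035_at just outside with 0.9968, and 305 probe sets failed that term alone. At 3 h, 259012_at was just inside with 1.077 and 248901_at just outside with 0.9885. For the level at 3 h, AT2G31945 was inside at 9.1084 and AT5G41900 outside at 8.9781. The MJ limit fell between 253277_at at 0.4872 and 258652_at at 0.5077, and 49 probe sets failed on it alone. The IAA limit fell between 247723_at at 0.4955 and AT5G52550 at 0.5013, and 43 failed on it alone. The group is therefore a slice of the ABA response, not a class with a gap around it.

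The 8 named risers furthest above mock at 3 h differed in how much of that distance was present at 1 h. AT3G02480, which encodes a LEA family protein, read 7.91 and 9.10 on the 2 mock arrays at 3 h and 14.06 and 14.17 under ABA, a difference of 5.60. At 1 h it had read 8.26 and 8.83 in mock and 9.33 and 10.14 under ABA, a difference of 1.19. AT2G41190, of the amino acid transporter family, read 9.31 and 9.65 in mock at 3 h and 14.20 and 14.68 under ABA, a difference of 4.96 against 1.52 at 1 h. AT1G16850, whose product is given no role here, had a difference of 5.12 at 3 h and 1.45 at 1 h. AT4G33905, of the Mpv17/PMP22 membrane protein family, lay 4.88 above mock at 3 h and 2.54 at 1 h. AT1G14730, a cytochrome b561 of membrane electron transfer, lay 4.20 above mock at 3 h and 1.08 at 1 h. AT4G33550, of the lipid-transfer protein family, lay 4.18 above at 3 h and 1.40 at 1 h. AT3G51750 and the receptor-like kinase gene AT5G24080 had 3 h differences of 4.13 and 3.89. In each of these 8 genes both ABA arrays at 3 h stood clear of both mock arrays.

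**Figure D1:**
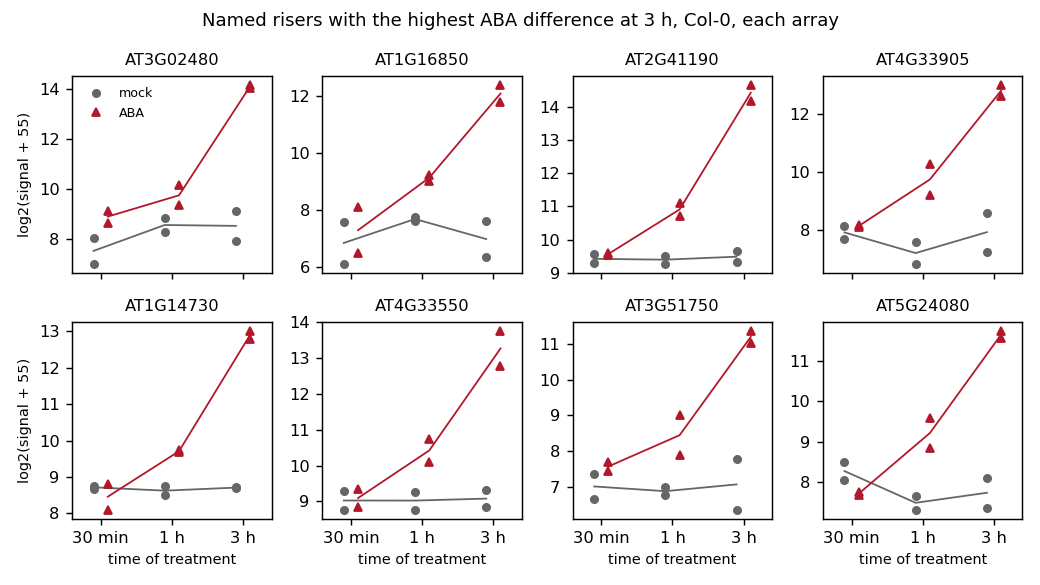
Levels, log2(signal + 55), of the 8 named risers with the highest ABA difference at 3 h, by time of treatment in Col-0, with grey circles for mock arrays, red triangles for ABA arrays and lines through the means of 2 arrays. The ABA difference at 30 min runs from -0.56 in AT5G24080 to 1.38 in AT3G02480, and at 3 h both ABA arrays stand clear of both mock arrays in each panel; vertical scales differ between panels.

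A smaller number of risers were nearer to mock at 3 h than at 1 h. AT5G15950 encodes an S-adenosylmethionine decarboxylase, an enzyme of polyamine synthesis. It read 13.00 and 12.35 under ABA at 1 h against 10.60 and 10.49 in mock, and 11.59 and 12.36 at 3 h against 10.51 and 10.83, so its difference went from 2.13 to 1.30. AT4G27657 went from 3.05 to 2.34, AT1G30260 from 1.68 to 1.47, and AT1G60590, a pectin lyase-like protein of the class that acts on cell wall pectin, from 2.34 to 2.23. For AT4G27657, AT1G30260 and AT1G60590 the gap between the 1 h and 3 h differences is smaller than the distance between their 2 ABA arrays at 1 h. These genes were named by rank, and the change was not tested, because both times entered the choice.

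Named risers are given next by protein family at 3 h, in groupings made after the values were seen. The lipid-transfer family members AT4G33550, AT5G13900 and AT3G22620 lay 4.18, 2.99 and 2.43 above mock. Other genes of lipid handling were AT4G39670, a glycolipid transfer protein family gene at 3.6, AT1G21790 with a TLC domain at 3.67, AT1G67360, which encodes a lipid-droplet-associated protein, at 2.39, and AT3G46450, of the SEC14-like family, at 1.89. AT5G47530 and AT4G17280, whose proteins join a DOMON domain to a cytochrome b561 domain, lay 3.14 and 2.91 above. The pectin lyase-like genes AT1G60590 and AT1G10640 lay 2.23 and 1.85 above. AT5G45630 and AT2G28400, of the DUF584 family of senescence regulators, were at 3.25 and 3.20. AT3G62260, a PP2C family phosphatase, was among the lowest at 1.23, and AT2G21130, a cyclophilin, was at 1.1.

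The 30 min arrays took no part in the choice, so they ask whether the same probe sets had already moved. They had, in part. The median ABA minus mock difference of the risers at 30 min was 0.51, with a range of -0.65 to 4.12, where the median of all 17262 tested probe sets was 0.02. 132 of the 148 (89.2%) lay above 0, against 53.8% of all tested. In 98 risers (66.2%) both ABA arrays read above both mock arrays, against 20.4% of all tested, and in 2 (1.35%) both read below, against 14.2%. A difference of at least 0.5 was reached by 77 risers (52.0%, against 7.07%), and one of at least 1 by 37 (25.0%, against 1.03%). After adjustment over all tested probe sets, 15 risers (10.1%) rose in limma's test and 0 fell, where 0.313% of all tested probe sets were called in either direction, 0.249% as higher and 0.0637% as lower. At an unadjusted p under 0.05 there were 66 risers, all higher under ABA. No share of all tested probe sets stands beside unadjusted counts, here or below, so nothing is read from them. Of the 43 probe sets called higher under ABA at 30 min, the risers made up 34.9%, and 19 of the other 28 also had ABA differences of at least 1 at both later times.

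The count of 15 was not stable between fits. With the replicate number as a block it was 21 (14.2%), where that fit called 0.655% of all tested. It was lower in every fit that left out 1 array, which leaves 1 array in a group, and 6 on the signals as deposited without rescaling. No share of all tested probe sets stands beside those lower counts, so nothing is read from them. With the zeatin, GA3, ACC and BL arrays of the same time in place of mock it was 29, against 0.799% of all tested probe sets. 7 probe sets stayed called whichever of the 4 arrays was left out: 258325_at, 259231_at, 248764_at, 250781_at, 253263_at, 251272_at and 253550_at. They carry no gene name here and were singled out after their values were seen.

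**Figure D2:**
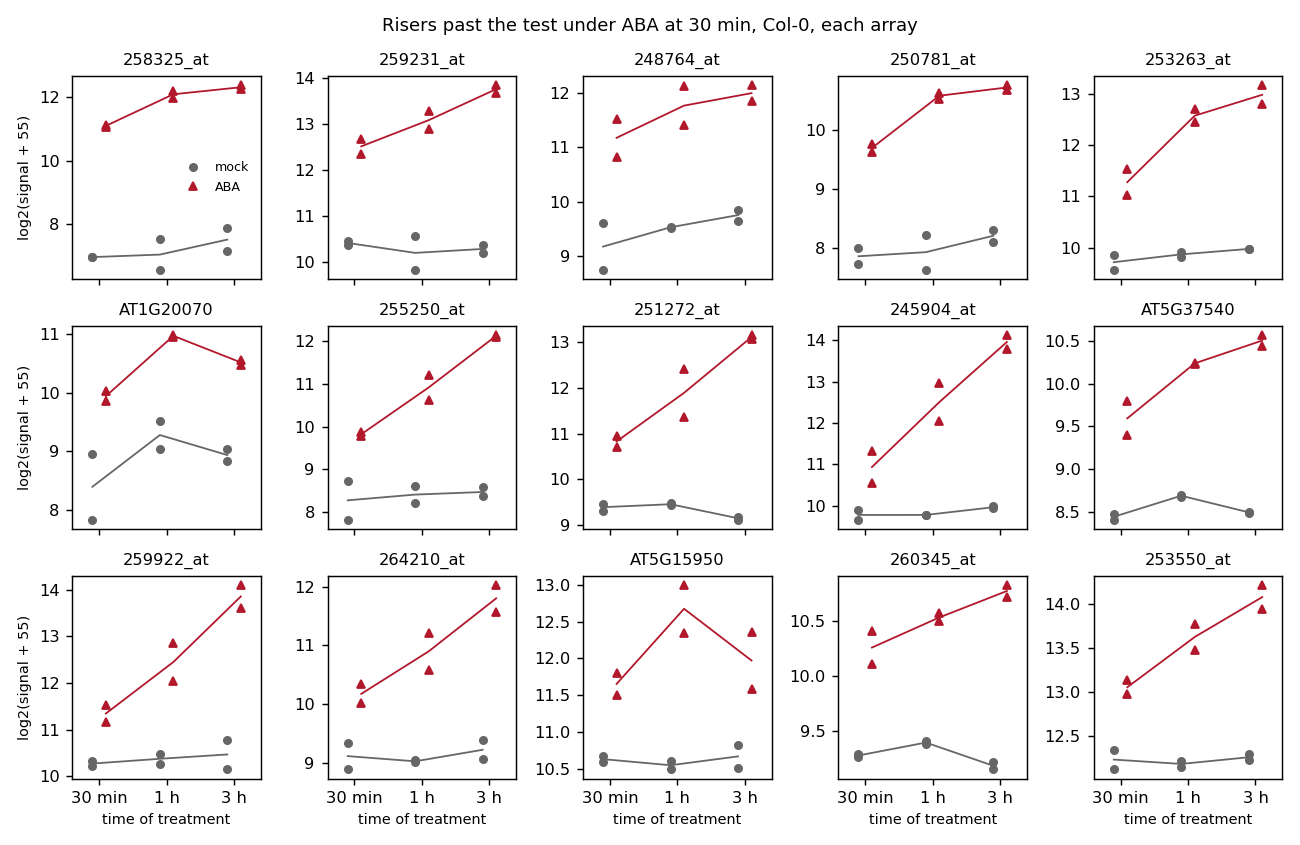
Levels, log2(signal + 55), of the 15 risers that passed limma's test under ABA at 30 min, by time of treatment in Col-0, with grey circles for mock arrays, red triangles for ABA arrays and lines through the means of 2 arrays. At 30 min the 2 ABA arrays lie above both mock arrays in each panel, and the panels run from the highest 30 min difference, 4.12, to the lowest, 0.82; vertical scales differ.

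The riser furthest above mock at 30 min, 258325_at, ranked 1 by its difference among all tested probe sets. It read 6.97 and 6.98 on the mock arrays and 11.12 and 11.06 under ABA, a difference of 4.12 (SE 0.45), or 17.4-fold, with a limma adjusted p of 2.55e-08. It then lay 5.03 above mock at 1 h and 4.78 at 3 h, so most of its distance from mock was already there at 30 min. 259231_at read 10.45 and 10.36 in mock and 12.68 and 12.35 under ABA, a 4.31-fold difference with a limma adjusted p of 2.55e-08. 248764_at read 9.61 and 8.76 in mock and 11.53 and 10.82 under ABA, where the groups stand apart although each pair of arrays is spread (log2 difference 1.99, SE 0.26, limma adjusted p = 2.63e-06). The other 4 of the 7 had 30 min differences of 1.84 for 250781_at, 1.56 for 253263_at, 1.44 for 251272_at and 0.82 for 253550_at. For 253550_at the call was lost on the deposited scale, at a limma adjusted p of 0.426.

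3 named genes passed the test at 30 min. AT5G37540, an aspartyl protease gene, read 8.41 and 8.48 in mock and 9.79 and 9.39 under ABA (log2 difference 1.15, SE 0.23, limma adjusted p = 0.00515). AT5G15950, the S-adenosylmethionine decarboxylase gene, read 10.59 and 10.67 in mock and 11.81 and 11.50 under ABA (1.02, SE 0.22, limma adjusted p = 0.0172). AT1G20070 read 7.83 and 8.95 in mock and 9.85 and 10.03 under ABA (1.55, SE 0.34, limma adjusted p = 0.0172), with the mock arrays more than 1 unit apart. In all 3 genes the groups did not overlap. Each call nonetheless held in 1 of the 4 fits that left out an array. AT5G37540 and AT5G15950 lost it without ABA replicate 1 (limma adjusted p = 0.403 and 0.599) or without either mock array, and AT1G20070 without mock replicate 1 (limma adjusted p = 0.748) or without either ABA array. All 3 lost it on the deposited scale, AT5G37540 and AT1G20070 also with only the arrays of the same set, and AT1G20070 also after quantile normalization. Some larger differences did not pass: AT4G27657 read 6.03 and 5.90 in mock and 7.89 and 7.87 under ABA, a difference of 1.91 with a limma adjusted p of 0.174.

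Among the 8 named risers furthest above mock at 3 h, the 30 min difference ran from -0.56 for AT5G24080 to 1.38 for AT3G02480, and none passed the test. AT3G02480 read 6.99 and 8.02 in mock and 8.64 and 9.12 under ABA at 30 min, with no overlap, and its 30 min difference was above its 1.19 at 1 h (limma adjusted p = 0.496 at 30 min). The 3 named risers lowest at 30 min were AT5G24080 at -0.56, AT1G14730 at -0.26 and AT1G54540, a LEA-related hydroxyproline-rich glycoprotein gene, at -0.18, and none passed the test. AT5G24080 read 8.50 and 8.07 in mock and 7.76 and 7.69 under ABA, the reverse of its order at 1 h and 3 h. AT4G33550, AT2G41190, AT4G33905, AT1G16850 and AT3G51750 had differences of 0.07, 0.15, 0.22, 0.45 and 0.56. Across the 148 risers the 30 min difference correlated with the 1 h difference at r = 0.593 and with the 3 h difference at r = 0.08, over probe sets that share arrays within each time. The 15 called at 30 min had median differences of 1.44, 2.23 and 2.58 at 30 min, 1 h and 3 h, and the other 133 had 0.45, 1.33 and 2.43. In 130 of the 148 the difference grew at each step from 30 min to 3 h, and in 16 it was below 0 at 30 min. The choice set limits on the 1 h and 3 h differences and none at 30 min, which favours such an order. Nothing is therefore read from the count of 130.

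**Figure D3:**
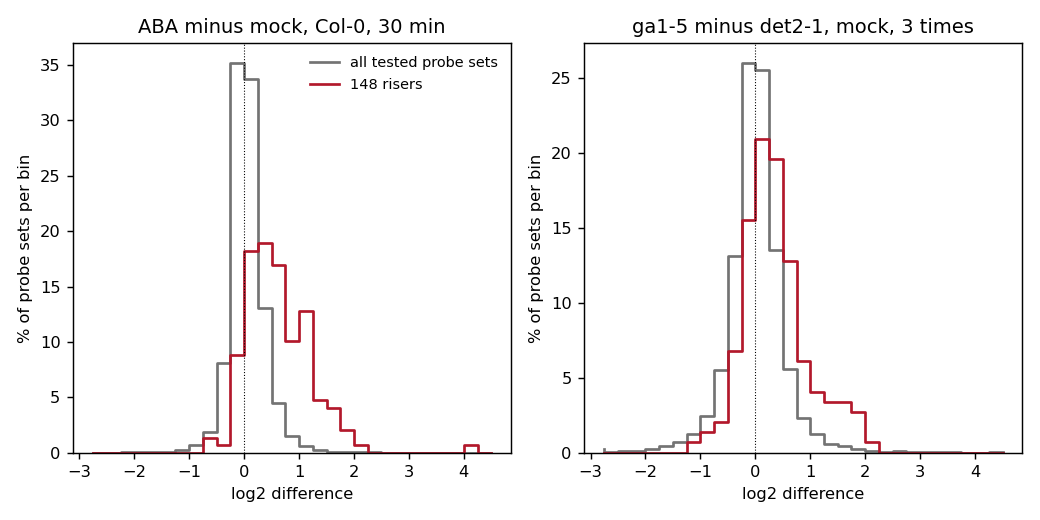
Share of probe sets (percent per bin of 0.25) by log2 difference, for the 148 risers in red and all 17262 tested probe sets in grey, for ABA minus mock in Col-0 at 30 min (left) and ga1-5 minus det2-1 in mock seedlings (right). The risers are shifted to the right in both panels, with medians of 0.51 against 0.02 on the left and 0.26 against 0.00 on the right.

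Genes of the ABA pathway outside the risers were compared from lists of known genes. None of the lists of PP2C phosphatases, ABA receptors and SnRK2 kinases matched a probe set named here, and no list held a riser. The 86 risers that carry no gene name and the 2 that name several could not match a list. The absence therefore covers only the 60 risers that name 1 gene. Of 8 tested probe sets of LEA and cold-regulated genes, which include 3 of those set aside, 0 rose at 30 min in limma's test (3 had an unadjusted p under 0.05), 4 at 1 h and 7 at 3 h. Of all tested, 0.249%, 2.02% and 10.2% rose at those times. The 1 h and 3 h rises include the 3 set aside, COR15A, COR47 and LEA4-5, named beforehand as ABA-responsive. Nothing is therefore read from these counts. Of 5 ubiquitin ligase and protein turnover genes 1 rose at 30 min: PUB19, a U-box ubiquitin ligase gene and the fourth of those set aside by name, 4.91-fold (limma adjusted p = 0.0142). The bZIP factor gene EEL had differences of 0.53, 1.01 and 0.69 at the 3 times and passed at none. Of the organ markers, 2 of the root list had probe sets, PYK10 and EXPA7, with 30 min differences of -0.07 and -0.44, and no shoot marker had one. The handling markers STZ and CML38 had 30 min differences of 0.73 and 0.69, and neither passed the test at that time. STZ passed at 3 h with 2.27. The part of handling in the risers' values was not tested.

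The next question was whether other hormones moved the risers at 30 min, against the same mock arrays that the ABA value uses. Those values therefore share their controls. Median differences of the risers were -0.04 for MJ, -0.04 for IAA, -0.01 for zeatin, -0.03 for GA3, 0.12 for ACC and 0.14 for BL, beside 0.51 for ABA. Over all tested probe sets the medians were -0.0034, -0.0077, 0.0035, 0.0065, 0.0463 and 0.061 in that order, beside 0.022 for ABA. MJ lowered 1 riser, 258809_at, where 1.82% of all tested probe sets were called and 0.411% were lower. It read 10.25 and 10.16 in mock and 8.60 and 9.22 under MJ, a fall of 1.29 on the log2 scale that was lost without MJ replicate 1 (limma adjusted p = 0.00089 with it and 0.149 without). limma called 0 risers under IAA (0.452% of all tested), zeatin (0.168%), ACC (0.0406%) and BL (0.133%), and under GA3 it called no probe set at all. At an unadjusted p under 0.05 there were 9 risers for IAA, 13 for zeatin, 2 for GA3, 12 for ACC and 12 for BL. Of these, 6, 5, 0, 9 and 9 in that order were higher than mock, and the rest were lower. For 13 risers the IAA value at 30 min rests on 1 array, because their values on the other were unusable. With the replicate number as a block, zeatin gave 1 call in place of 0, where that fit called 0.353% of all tested.

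**Figure D4:**
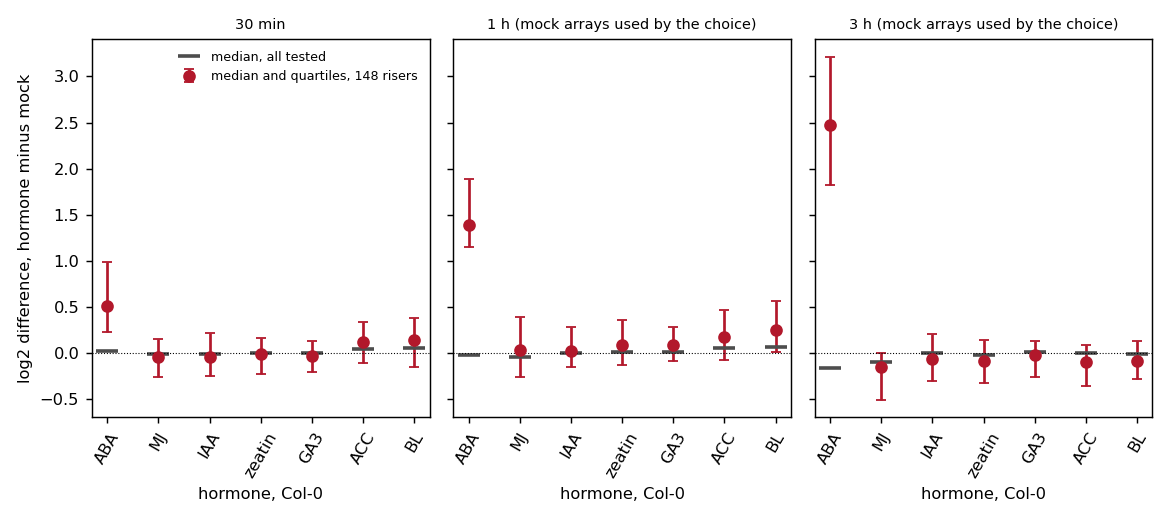
Median log2 difference from mock of the 148 risers (red points, bars from the lower to the upper quartile) and median of all tested probe sets (grey dashes) for each of 7 hormones in Col-0, at 30 min, 1 h and 3 h. ABA stands apart at each time, with medians of 0.51, 1.39 and 2.48; the 1 h and 3 h mock arrays, the ABA arrays at both of those times and the MJ and IAA arrays at 3 h entered the choice of risers.

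At 1 h and 3 h the mock arrays themselves entered the choice, which favours low mock readings, so hormones were compared with one another instead. A difference in these contrasts can come from either side, and which side moved was not tested. At 1 h, MJ and IAA were each set against zeatin, GA3, ACC and BL. Under MJ 8 risers were called lower than under those hormones and 0 higher (18 and 6 at an unadjusted p under 0.05). Of all tested probe sets 7.03% were called, 3.04% as lower and 3.99% as higher. That count of 8 was smaller when either MJ array was left out. The whole contrast was shifted down, with a median difference of -0.0693 over all tested probe sets and -0.136 in the risers. With array medians subtracted, or with quantile normalization, 2 risers were called higher and fewer than 8 lower. The one-way split is therefore not read as an effect of MJ on the risers. AT5G37540 read 7.16 and 7.67 under MJ, and between 7.30 and 8.53 on the 8 comparison arrays, so the groups overlapped (log2 difference -0.69, limma adjusted p = 0.00893, lost without MJ replicate 1 at 0.529). 251356_at read 8.06 and 8.13 under MJ, below all 8 others, which lay from 8.35 to 9.65 (-0.97, limma adjusted p = 3.1e-05), and its call held without any 1 array. AT1G09520 was called at -0.49, and the call held in 5 of 10 fits without an array. IAA differed from the same hormones in 3 risers, 1 higher and 2 lower, where 1.95% of all tested were called (1.09% higher and 0.863% lower). With the replicate number as a block there were 6 (4.05%), where that fit called 3.99%. AT5G37540 was higher, at 8.85 and 9.12, above all 8 comparison arrays (0.88, limma adjusted p = 0.00211), a call lost without IAA replicate 2 (0.204). 254210_at and 251169_at were lower under IAA, with differences of -1.25 and -1.11, and each call held in 9 of 10 fits without an array.

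At 3 h zeatin, GA3, ACC and BL were each compared with the other 3. Zeatin differed from the others in 7 risers, where 3.26% of all tested were called, with 4 higher (1.93% of all tested) and 3 lower (1.33%). With the replicate number as a block there were 16 (10.8%), where that fit called 6.42% of all tested. AT5G15180, a class III peroxidase gene, read 7.75 and 6.38 under zeatin and from 8.74 to 9.41 on the 6 other arrays, a difference of -2.07 (SE 0.25, limma adjusted p = 2.22e-07). AT3G57010, a strictosidine synthase-like gene, went the other way, at 11.26 and 11.30 under zeatin and from 9.49 to 10.29 elsewhere (1.44, SE 0.19, limma adjusted p = 1.24e-06). 261428_at read 9.98 and 9.83 under zeatin and from 8.12 to 8.55 elsewhere (1.53, limma adjusted p = 2.2e-05). These 3 calls held without any 1 array, and in each the groups did not overlap. The lipid-transfer family gene AT5G13900 was 1.01 higher under zeatin and AT5G37540 was 0.75 lower, and both calls were lost without zeatin replicate 1 (limma adjusted p = 0.502 and 0.411). The choice of risers set limits for MJ and IAA alone. Against the 3 h mock arrays, which entered the choice, 261428_at and AT3G57010 lay 1.33 and 1.29 above under zeatin, and the unnamed 246922_at lay 1.5 above under ACC and 1.13 above under BL.

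ACC differed from the others in 6 risers at 3 h, where 3.57% of all tested were called, with 3 higher (1.41% of all tested) and 3 lower (2.16%). 258809_at read 10.49 and 10.50 under ACC and from 9.24 to 9.65 under the other 3 hormones (1.00, SE 0.21, limma adjusted p = 0.00148). 246097_at read 8.91 and 9.09 under ACC and from 9.37 to 10.11 under the others (-0.87, limma adjusted p = 0.000478). Both calls held without any 1 array, though that of 246097_at was lost on the deposited scale (0.0971). AT5G24080, the receptor-like kinase gene, read 6.84 and 6.18 under ACC and from 7.23 to 8.37 elsewhere (-1.35, limma adjusted p = 0.0201), and its call was lost without ACC replicate 2 (0.407) or zeatin replicate 2 (0.0548).

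BL differed from the others in 4 risers at 3 h, where 3.1% of all tested were called, with 1 higher (1.81% of all tested) and 3 lower (1.29%). 262635_at read 8.24 and 8.93 under BL and from 9.46 to 10.28 under the others (-1.36, limma adjusted p = 5.05e-05), and 259426_at read 11.13 and 10.79 against 11.81 to 12.49 (-1.17, limma adjusted p = 5.53e-08). Both were separated from the other arrays, and both calls held without any 1 array. AT3G57010 was 0.79 lower under BL, a call lost without either BL array (0.192 and 0.0556), and AT5G15180 was 0.87 higher, a call that held in 3 of 8 such fits. Both comparisons include the zeatin arrays, on which these 2 genes stood far from the rest. GA3 differed from the others in 1 riser, 251109_at, by -1.51, where 0.348% of all tested were called and 0.209% were lower. That call held in 2 of 8 fits without an array, and there were 2 calls with the replicate number as a block, where that fit called 1.54%. Beside the shares of all tested probe sets given above, the shares of the risers called were 4.73% for zeatin, 4.05% for ACC, 2.7% for BL and 0.676% for GA3 at 3 h, and 5.41% for MJ and 2.03% for IAA at 1 h.

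The mutant arrays also took no part in the choice. ga1-5 carries a lesion in an early step of gibberellin synthesis and det2-1 in a reductase of brassinosteroid synthesis. Neither mutated gene, nor a shoot marker, had a named probe set that could check the labels. Each genotype was handled as its own labelled sets of arrays, so genotype and set cannot be told apart. Deposited signals of the mutants were also brighter, with trimmed means of 1810 to 2963 against 871 to 1158 in Col-0, and were rescaled here. Without rescaling, 113 risers were called in ga1-5 and 93 in det2-1 against Col-0, with the median of all probe sets moved by 1.22 and 1.21, so the comparisons with Col-0 below rest on the rescaling. Between the 2 mutants the count was 68 without rescaling and 65 with it.

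In mock seedlings over the 3 times, the risers stood higher in ga1-5 than in det2-1. limma called 65 of the 148 (43.9%), where 35.1% of all tested probe sets were called. Of these 60 were higher in ga1-5 (40.5%, against 18.2% of all tested) and 5 were lower (3.38%, against 16.8%). The median difference was 0.26, against 0.00 over all tested. Leaving out any 1 of the 12 arrays gave 54 to 60 calls, and 45 of the 65 probe sets stayed called in all 12 such fits.

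The unnamed 264436_at had the highest of these differences. It read from 12.49 to 13.11 on the 6 ga1-5 arrays and from 10.27 to 11.05 on the 6 det2-1 arrays, 4.18-fold apart (log2 difference 2.06, SE 0.16, limma adjusted p = 6.2e-14). The hydroxyproline-rich glycoprotein gene AT1G54540 read from 8.26 to 8.85 in ga1-5 and from 6.17 to 6.62 in det2-1, 3.99-fold apart (SE of the log2 difference 0.39, limma adjusted p = 5.9e-05). The lipid-transfer gene AT3G22620 read from 11.77 to 12.36 and from 9.91 to 10.45 (1.87, SE 0.23, limma adjusted p = 7e-09). In all 3 the lowest ga1-5 array lay above the highest det2-1 array. The lipid-droplet gene AT1G67360 read from 11.83 to 12.12 and from 10.23 to 10.43 (1.66, limma adjusted p = 2.31e-07), and the peroxidase gene AT5G15180 from 9.76 to 10.24 and from 7.95 to 8.81 (1.64, limma adjusted p = 3.07e-10). The named risers furthest above mock under ABA at 3 h were divided. Higher were AT3G02480 by 1.43, AT1G14730 by 1.35, AT4G33550 by 1.25 and AT2G41190 by 0.65. AT5G24080 was called lower, and AT1G16850, AT4G33905 and AT3G51750 were not called. All calls named in this paragraph held without any 1 array and under every other setting tried.

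**Figure D5:**
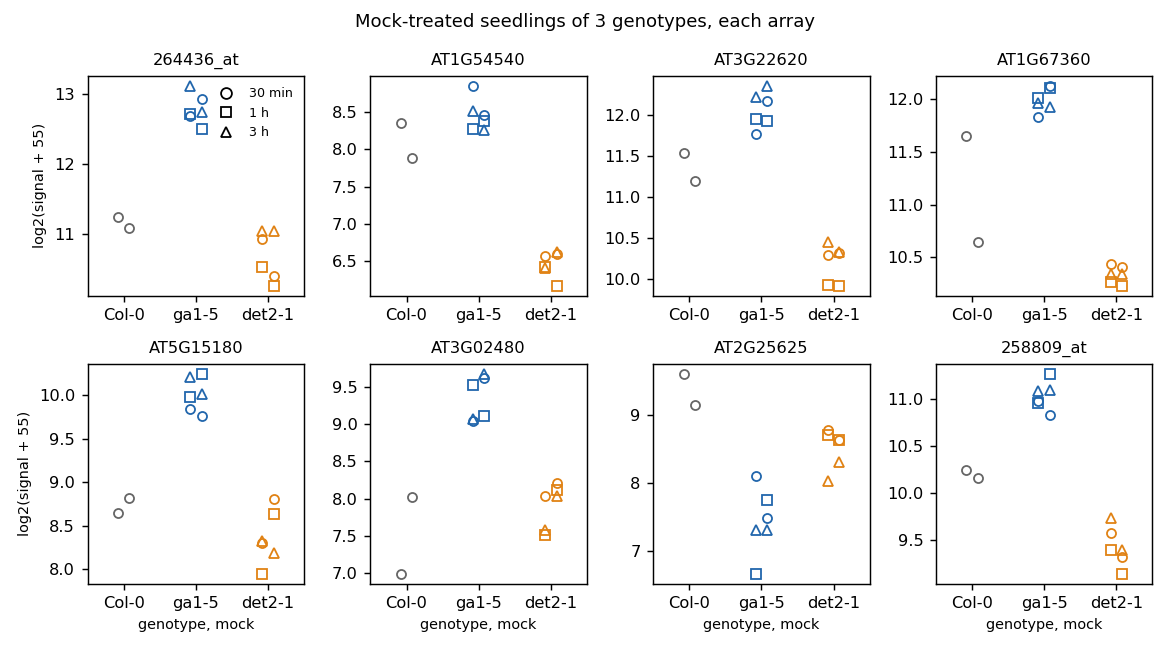
Levels, log2(signal + 55), of 8 risers in mock-treated seedlings of Col-0 (grey, 30 min arrays alone), ga1-5 (blue) and det2-1 (orange), where circles, squares and triangles are arrays at 30 min, 1 h and 3 h. The 6 ga1-5 arrays lie above the 6 det2-1 arrays in all panels but that of AT2G25625, where they lie from 6.67 to 8.10 against 8.03 to 8.78; vertical scales differ between panels.

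The 5 risers lower in ga1-5 than in det2-1 included AT2G25625, which encodes a protein of stress-induced chloroplast breakdown. It read from 6.67 to 8.10 in ga1-5 and from 8.03 to 8.78 in det2-1, so the groups overlapped by 1 pair of arrays (-1.07, SE 0.26, limma adjusted p = 0.000938). AT5G24080 was 0.82 lower and AT3G46450 0.43 lower, and the unnamed 260900_s_at and 260543_at were 0.84 and 0.32 lower. The calls for AT3G46450 and 260543_at were lost on the deposited scale (limma adjusted p = 0.414 and 0.597), and that of 260543_at held in 8 of 12 fits without an array.

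Against Col-0 the mutants could be compared on the 30 min mock arrays, which are also the controls of the ABA value at 30 min. A mock array that read low would raise both differences. In ga1-5, 30 risers were called, where 21.1% of all tested probe sets were, 27 of them higher (18.2%, against 9.96%) and 3 lower (2.03%, against 11.1%). The count fell to between 16 and 18 when any 1 of the 4 arrays was left out. 8 probe sets stayed called in all 4 such fits, among them AT2G21130 and AT3G57010. The cyclophilin gene AT2G21130 read 10.997 and 10.50 in Col-0 and 12.33 and 11.97 in ga1-5, with no overlap (1.40, SE 0.22, limma adjusted p = 7.47e-06). AT3G57010 read 9.90 and 10.10 in Col-0 and 11.01 and 11.30 in ga1-5 (1.16, SE 0.23, limma adjusted p = 0.00021). 264953_at stood highest, at 10.01 and 9.70 in Col-0 and 13.08 and 13.91 in ga1-5, 12.5-fold apart (3.64, SE 0.63, limma adjusted p = 3.01e-05).

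Other calls in ga1-5 did not hold in every fit without an array, and each such fit leaves 1 array in a group. AT3G02480 read 6.99 and 8.02 in Col-0 and 9.04 and 9.61 in ga1-5 (1.82, limma adjusted p = 0.00695), and was not called without Col-0 mock replicate 1 (0.15) or ga1-5 replicate 2 (0.0918). AT1G20070 was 1.51 higher, and was not called without Col-0 mock replicate 1 (0.0961). AT2G25625 was 1.58 lower and AT5G24080 1.51 lower, each lost in 2 of the 4 fits and on the deposited scale.

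In det2-1, 8 risers were called against Col-0, where 9.15% of all tested were, with 2 higher (3.74% of all tested) and 6 lower (5.41%), and 2 when any 1 array was left out. 264953_at read 12.66 and 11.54 in det2-1, above both Col-0 arrays (2.25, limma adjusted p = 0.0178), against the same Col-0 arrays as in the ga1-5 comparison. AT5G13900 was 1.22 lower, AT4G17280 1.29 lower and AT5G54300 1.34 lower. None of these 4 calls held in every fit without an array. The highest limma adjusted p there was 0.205 for 264953_at, 0.178 for AT5G13900, 0.107 for AT4G17280 and 0.341 for AT5G54300.

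The missing hormone was also supplied to each mutant, and BL in det2-1 moved more of all tested probe sets than GA3 in ga1-5. GA3 in ga1-5, tested over the 3 times together, lowered 1 riser (0.676%), where 0.127% of all tested were called and 0.104% were lower. This was 258809_at, which read 10.98 and 10.83 in mock and 10.00 and 9.96 with GA3 at 30 min, 10.96 and 11.26 against 9.52 and 9.66 at 1 h, and 11.09 and 11.09 against 9.69 and 9.88 at 3 h. Mock and GA3 arrays did not overlap at any time, and the mean fall was 1.25 on the log2 scale (limma adjusted p = 4.8e-06), a call that held without any 1 array. The same probe set was 1.60 higher in ga1-5 than in det2-1 (limma adjusted p = 3.26e-12), was lowered by MJ at 30 min and was higher under ACC at 3 h, as given above. It carries no gene name here.

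BL in det2-1 moved 6 risers (4.05%) over the 3 times, where 3.14% of all tested were called. 262635_at read 10.61 and 10.33 in mock and 11.06 and 10.56 with BL at 30 min, and 10.50 and 10.93 against 9.004 and 8.34 at 3 h, so it was 2.04 lower by 3 h, in the same direction as under BL in Col-0. 246097_at read 9.57 and 9.45 in mock and 10.75 and 10.95 with BL at 3 h, 1.34 higher, after a difference of -0.47 at 30 min. These 2 calls held without any 1 array. AT1G09520 and AT3G11420, a glycosyltransferase-like gene, had mean differences of -0.38 and -0.08, and their calls held in 7 and 8 of 12 such fits. For the BL response at 30 min, limma called 0 of the 148 risers as different between det2-1 and Col-0 (7 at an unadjusted p under 0.05), where 0.0579% of all tested were called. For the GA3 response at 30 min it called no probe set as different between ga1-5 and Col-0, and 3 risers had an unadjusted p under 0.05.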

How the data were processed

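Expression was measured on 72 Affymetrix ATH1 arrays, and the authors deposited linear signal intensities that, per the submitters' processing notes, come from MAS5. The genome build is not given in the sources used here. The members and gene lists were chosen with earlier results of these data known. Each array was rescaled to a common trimmed mean (2% trimmed at each end, target 1147), and log2 was taken after adding 55. On 1 IAA 30 min array, 1973 unusable values in 2 stretches were left out.

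A model with 36 group means over all 72 arrays was fitted with limma 3.58.1 in R 4.3.3, with a trended variance and Benjamini-Hochberg adjustment at 0.05. It covered 17262 probe sets above the 40th percentile on at least 2 arrays, and all 148 members passed that filter, since their level under ABA at 3 h chose them. GA3 in ga1-5 and BL in det2-1 were tested with an F test over 3 times. Tested on simulated data for ABA at 30 min over 17262 probe sets, the fit recovered 24%, 54%, 86% and 86% of changes of 0.5, 1, 1.5 and 2 (log2), and 8 of 133 calls were false. With 2 arrays per group, the number of arrays limits the precision. Replicate arrays correlated at 0.93 to 0.98.

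Same-numbered treated and mock arrays deviated together, at correlations over 0.1 at all 3 times, for ABA (0.285, 0.315 and 0.135), IAA, zeatin, GA3 in Col-0 and BL in det2-1, but not for MJ, ACC, BL in Col-0 or GA3 in ga1-5. MJ, ACC and BL in Col-0 were over 0.1 at 30 min and 1 h only, and GA3 in ga1-5 at 30 min only. The block, where used, covered the replicate numbers of all sets. The fit behind the reported p-values has no block for them, and counts with the block are named as such.

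Genes named in the text were members with 1 gene name: the 8 furthest above mock under ABA at 3 h, those with the most and the least gain from 1 h to 3 h, those called or lowest at 30 min, up to 3 called each way in each other comparison, and those next to the limits of the choice. Unnamed probe sets and the protein family groupings were picked after their values were seen. Of all probe sets, 13513 name 1 gene and 503 name several. No sequence was used here, so promoters were not searched.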

Additional observations from a re-analysis of the deposited data

How the results depend on the processing

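Counts of called members that moved by more than 1.5 times were as follows, and the cause was not tested. A fit can also change the share of all tested probe sets called. Nothing about the risers is therefore read from the counts in this section alone. On the deposited signals without rescaling, the counts were 6 for ABA and 0 for MJ at 30 min, 1 for MJ and 0 for IAA at 1 h, 3 for zeatin, 0 for GA3, 1 for ACC and 2 for BL at 3 h, 113 for ga1-5 and 93 for det2-1 against Col-0, and 2 for BL in det2-1. With the replicate number as a block, they were 2 for MJ, 1 for zeatin and 2 for BL at 30 min, 14 for MJ and 6 for IAA at 1 h, 16 for zeatin, 2 for GA3, 17 for ACC and 8 for BL at 3 h, and 18 for det2-1 against Col-0. The block left the other counts within 1.5 times of their values, and ABA at 30 min then had 21. The block also raised the share of all tested probe sets called. That share went from 3.26% to 6.42% for zeatin at 3 h, and from 0.313% to 0.655% for ABA at 30 min. With only the arrays of the sets compared, they were 2 for MJ at 30 min, 4 for MJ at 1 h, 3 for zeatin, 0 for GA3, 2 for ACC and 2 for BL at 3 h, and 3 for BL in det2-1. Subtracting array medians gave 1 for BL at 30 min, and quantile normalization 2 for MJ at 30 min. Without the dim filter GA3 at 3 h had 0, and without the variance trend it had 0 and IAA at 30 min had 1. With a pseudocount 5 times larger, IAA at 30 min had 1 and GA3 in ga1-5 had 2. Other hormones in place of mock gave 29 for ABA at 30 min. For MJ at 1 h, array medians gave 2 higher and 4 lower, and quantile normalization 2 higher and 5 lower.

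Leaving out each array in turn gave 7 to 14 for ABA, 0 to 1 for MJ, 0 to 1 for zeatin, and 0 for IAA, GA3, ACC and BL at 30 min. It gave 2 to 9 for MJ and 1 to 4 for IAA at 1 h, and 4 to 8 for zeatin, 0 to 1 for GA3, 3 to 8 for ACC and 2 to 5 for BL at 3 h. It gave 16 to 18 for ga1-5 and 2 for det2-1 against Col-0, 54 to 60 for ga1-5 against det2-1, 1 to 2 for GA3 in ga1-5 and 3 to 8 for BL in det2-1.

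Members not called at 30 min under ABA could change sign. With other hormones in place of mock, AT4G33905 went to -0.2201, AT1G14730 to 0.1386 and AT1G54540 to 0.3497, and AT4G33550 went to -0.0147 with array medians and -0.0077 with quantile normalization. Leaving out 1 array gave -0.0025 to 0.4465 for AT4G33905, -0.1863 to 0.3234 for AT4G33550, -0.3672 to 1.2607 for AT1G16850, -0.6137 to 0.0964 for AT1G14730 and -0.9276 to 0.5725 for AT1G54540. AT3G11420 under BL in det2-1 ranged from -0.1635 to 0.004. With 2 arrays per group, changes of 0.5 (log2) were mostly missed in simulated data.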
